A study of Mus musculus with 2 samples.

Results

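The mitochondrial ribosomal protein genes are the nuclear genes that encode the protein components of the ribosome inside mitochondria. Members were all genes whose deposited name begins with Mrpl or Mrps followed by a digit, and 71 of the 8262 named genes in the tables qualified. Of these, 45 carry names of the large subunit (Mrpl) and 26 carry names of the small subunit (Mrps). Mrpl23-ps1, counted with the large subunit, has the name of a pseudogene. The other 70 are among the 78 protein-coding RefSeq symbols that fit the rule, and 8 of those symbols were not listed. The question addressed was how strongly their messenger RNAs carry N6-methyladenosine (m6A) in early retinal tissue, the setting of the study's work on the m6A enzyme METTL3.

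Poly(A) RNA of mouse retinal organoids, tissue aggregates grown in culture, was read as native RNA on nanopores. Both libraries came from wild-type (WT) organoids of the Rx:GFP cell line at day 6, grown with AGN at 0.1 µM, and each was run on its own flow cell with the SQK-RNA002 kit. They form 1 group with n = 2, carry the same batch label, and have no untreated or mutant counterpart here. Nothing in the labels says whether the 2 libraries came from separate cultures, so the spread between them may be technical.

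Mitochondrial ribosomes translate the few messenger RNAs of the mitochondrial genome, all of which encode subunits of the oxidative phosphorylation complexes. Their proteins are encoded in the nucleus, translated in the cytosol and imported, so that their messenger RNAs can be methylated by the nuclear m6A writer, of which METTL3 is the catalytic subunit. m6A lies mostly within the DRACH context, where D is A, G or U, R is A or G, and H is A, C or U.

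All listed positions lay on 4 motifs of 5 bases. They are shown because median fractions were compared between gene sets within 1 motif at a time, with the central adenosine, the base that m6A occupies, in capitals.
Motif 1: agAct
Motif 2: ggAca
Motif 3: ggAcc
Motif 4: ggAct
Elsewhere the whole motif is written in capitals. Positions are counted in nucleotides (nt) from the start of the deposited transcript. Where RefSeq promoter windows (GRCm38.p6) allowed a comparison, the listed 5 bases matched 16 of 101 windows at an offset that puts the listed position on base 4 of the motif, the C after the adenosine, against at most 2 windows at any other offset.

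The fraction modified is the authors' share of reads scored as modified at a position, from 0 to 1, and coverage is the count of reads over it. A site was a position with 20 reads or more in its library. Over all genes, 6463 sites were kept in replicate 1 and 16212 in replicate 2. Of the retinal progenitor genes searched for, 7 of 7 (Rax, Lhx2, Six3, Six6, Pax6, Otx2 and Sox2) had listed positions in both libraries. None were listed for 5 pluripotency genes (Pou5f1, Nanog, Zfp42, Esrrb and Klf4) or for 5 genes of other lineages. Each gene, Sox2 included, was counted in 1 list only, and the contrast depends on that assignment. Since a position is listed only where reads cover a motif, this is not a measure of expression.

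Each library listed 238 positions in the family, in 66 genes in replicate 1 and 67 in replicate 2. Of these, 130 sites in 51 genes passed the read minimum in replicate 1 (54.6% of listed positions), and 169 sites in 63 genes in replicate 2 (71.0%). The family therefore passed more often than all genes, of whose positions 24.4% and 32.4% were kept. Median coverage of the sites was 40 and 56 reads. In all, 67 of the 71 genes had a site in at least 1 library. The other 4 were listed below the minimum: Mrpl32 reached 5 reads, and Mrps10, Mrps18b and Mrps23 reached 18 each.

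Sites at the same transcript and position in both libraries numbered 102, in 47 genes and on 48 transcripts. Replicate 1 had 78.5% of its member sites among them (Wilson 95% bounds 70.6 and 84.7), and replicate 2 had 60.4% (52.8 and 67.4). Over all genes these shares were 80.8% and 32.2%. These bounds cover counting error only. The large subunit held 85 of the shared sites in 35 genes, and the small subunit 17 in 12 genes.

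The mean fraction of a shared site over the 2 libraries ran from 0.0263 to 0.978, with a median of 0.335. Across the 102 sites, Pearson's r between replicates was 0.955 and Spearman's rho 0.941, a description only, since sites on 1 transcript share reads and all sites share 2 libraries. Replicate 2 was higher at 56 sites, lower at 45 and equal at 1, and the difference had a median of 0.0153 and an SD of 0.0883. Over all 5221 shared sites it was higher at 2390 and lower at 2733, with a median difference of -0.0043. A difference over 0.2 was found at 3 of 102 sites, in Mrpl15, Mrpl3 and Mrpl38 (5.94% of all shared sites exceeded it). At the 33 sites with 50 reads or more in both libraries, r was 0.963.

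**Figure D1:**
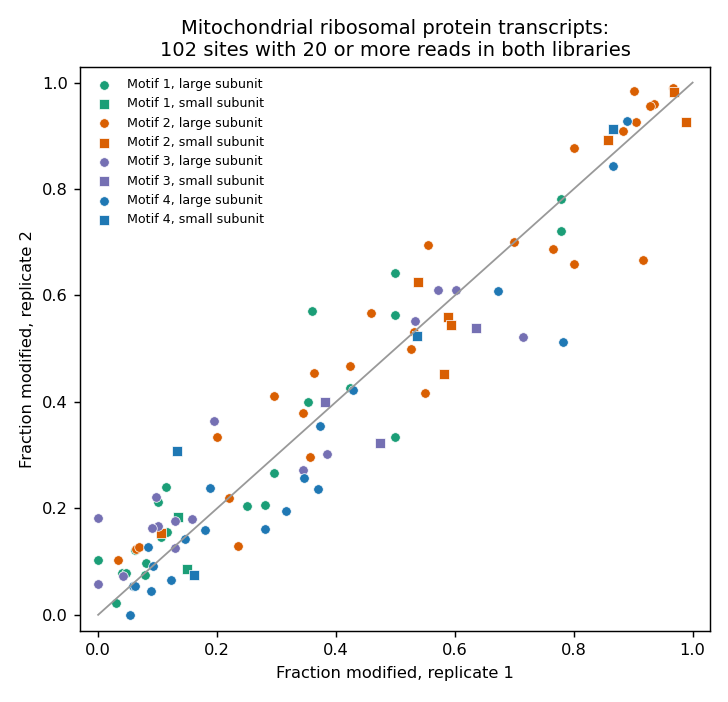
Fraction modified in replicate 1 (horizontal axis) against replicate 2 (vertical axis) at the 102 shared sites, coloured by motif (motif 1 AGACT, 2 GGACA, 3 GGACC, 4 GGACT), with circles for large and squares for small subunit names. The line marks equal fractions. Points follow it from near 0 to near 1, and the upper right corner holds mostly GGACA sites.

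Within the family the motif went with the level. The 35 shared GGACA sites had a median fraction of 0.569, against 0.168 at 24 AGACT sites, 0.279 at 19 GGACC sites and 0.221 at 24 GGACT sites. The spread inside each motif was wide: mean fractions at GGACA ran from 0.0684 in Mrpl41 to 0.978 in Mrpl42. All 7 member sites at 0.9 or more in both libraries were GGACA sites, in 7 genes (9.37% of all shared sites and 20.4% of all shared GGACA sites reached it). Conversely, 12 of 102 sites were at 0.1 or less in both (10.1% over all genes), and all 12 were in large subunit genes.

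Compared with the sites of all other genes, the family was lower at GGACA in both libraries, slightly lower at AGACT, and of differing sign between libraries at the other motifs. The GGACA median over 43 member sites in replicate 1 was 0.531, against 0.678 over 2287 sites of other genes. In replicate 2 it was 0.6 over 55 member sites, against 0.667 over 5718. The difference was -0.107 ± 0.0568 (SD, n = 2), lower in 2 of 2 libraries. An exact paired permutation over 2 libraries, two-sided, gave p = 0.5, the smallest p that this permutation can give.

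At AGACT the members differed from other genes by -0.0167 and -0.0225 in replicates 1 and 2. This direction was not stable: the mean difference was 0.0507 with no read minimum and -0.0884 over shared sites only. The GGACC difference was -0.0476 in replicate 1 and 0.0927 in replicate 2, and the GGACT difference was -0.0126 and 0.018. Averaged over the 4 motifs, the family differed by -0.0560 and 0.00538, with opposite signs in the 2 libraries. Its mean was negative under all 8 alternatives computed from both libraries (-0.0614 to -0.00975), and 5 of the 8 gave a negative value in each library. The GGACA difference was negative under all 8 alternatives that recomputed it from both libraries, from -0.189 to -0.0558. Among them, leaving out Mrpl23-ps1 and Mrps36 could not change the value, since neither gene had a GGACA site. The alternatives also draw on overlapping sites, so they are not independent of each other.

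Counted site by site, 40 of 102 shared member sites lay above the median of other genes at their motif in both replicates (45.1% of all shared sites did), and 53 lay below it in both (43.9%). With no read minimum the order turned round, with 77 sites above, 43.3% of the members' against 40.1% over all genes. At GGACA, 12 of 35 lay above (46.3%) and 20 of 35 below (44.8%). A mean fraction of 0.75 or more was reached at 11 of 35 member GGACA sites (44% of all shared GGACA sites).

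Cytosolic ribosomal protein genes (67 named genes) and oxidative phosphorylation genes (61) were set beside the family, a choice made after values had been seen. Both sets had higher medians than the family at GGACA sites and AGACT sites. For GGACA the family was 0.261 and 0.121 below the cytosolic set in replicates 1 and 2, since the cytosolic medians were 0.793 and 0.721. Oxidative phosphorylation genes had GGACA medians of 0.838 and 0.860. The family differed from them by -0.283 ± 0.0331 (SD, n = 2).

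For AGACT, the family medians of 0.25 and 0.241 compared with 0.5 and 0.474 in the cytosolic set, and with 0.533 and 0.434 over only 7 and 12 sites in the oxidative phosphorylation set. At GGACT the family differed from the cytosolic set by -0.0131 ± 0.0147 and from the oxidative phosphorylation set by -0.0281 ± 0.0459. At GGACC the sign differed between libraries in both comparisons (-0.0831 and 0.0763 against the cytosolic set, -0.0254 and 0.146 against the other). In the 2 libraries the family was thus lower than the cytosolic set at 3 motifs, with the GGACT values small (-0.0235 and -0.0027), and lower than the oxidative phosphorylation set at 2. The exact permutation p was at least 0.5 in every one.

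**Figure D2:**
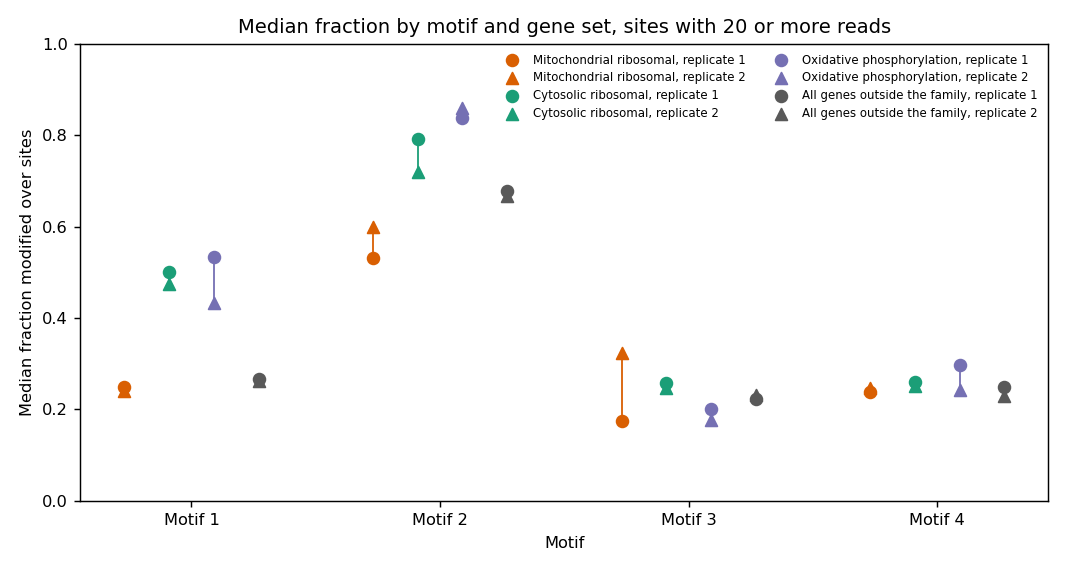
Median fraction modified (vertical axis) for each motif (horizontal axis; motif 1 AGACT, 2 GGACA, 3 GGACC, 4 GGACT) in the family, cytosolic ribosomal genes, oxidative phosphorylation genes and all genes outside the family. Circles are replicate 1 and triangles replicate 2. At motif 2 both family points (0.531 and 0.6) lie below all others, and at motif 3 the family's replicates lie farthest apart.

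The position along the transcript was also used to divide the sites, a choice made after values had been seen. GGACA sites of the family were lower than those of other genes within the first 400 nt (by -0.215 and -0.118), from 400 to 800 nt (-0.117 and -0.0545) and from 800 to 2000 nt (-0.132 and -0.0755). At GGACC from 800 to 2000 nt the family was higher, by 0.172 and 0.169 over only 6 and 9 sites, and within 400 nt lower, by -0.0975 and -0.0829. AGACT sites also lay lower within 400 nt (-0.0649 and -0.142) and higher from 800 to 2000 nt (0.103 and 0.0581). GGACT differed by -0.186 and 0.154 within 400 nt, over 4 sites in each library. Averaged over the 4 motifs, the difference was -0.0939 within 400 nt and 0.0311 from 800 to 2000 nt. From 400 to 800 nt it was -0.0131 (-0.0403 and 0.0140 in replicates 1 and 2). The difference between these position classes was not tested.

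The motif shares differed by a few percentage points. AGACT made up 22.1% ± 0.293 of member sites (SD, n = 2) and 17.5% ± 0.857 of the sites of other genes. GGACA made up 32.8% ± 0.377 against 35.9% ± 0.333. These gaps were larger than the SD between libraries. In each library the Wilson 95% interval of the members' share, which treats sites as independent, included the share in other genes for both motifs.

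The subunits differed from other genes in different ways. Large subunit sites were lower at all 4 motifs in both libraries, at GGACA by -0.22 and -0.1. The other gaps were smaller: -0.0167 and -0.0458 at AGACT, -0.0684 and -0.0086 at GGACC, and -0.0126 and -0.051 at GGACT. The comparison of each subunit with other genes was not recomputed under other settings. Small subunit sites differed at GGACA by -0.0872 and 0.13, and were higher at GGACC (0.159 and 0.188) and GGACT (0.0985 and 0.0822). Large and small subunit genes were then compared within motifs. The large subunit was lower at GGACA by -0.133 and -0.230 in the 2 replicates, at GGACC by -0.227 and -0.197, and at GGACT by -0.111 and -0.134. At AGACT the difference was 0.0159 and -0.0523. These rest on few small subunit sites, 23 in replicate 1 and 54 in replicate 2, with 4 to 8 per motif in replicate 1. Of the 54, 33 lay in genes without a site in replicate 1. The GGACA difference was 0.0105 with no read minimum and -0.0602 over shared sites only, so its direction depended on which sites were admitted. Names do not always match location: the proteins of Mrps18a and Mrps30 sit in the large subunit, and Mrps36 is also known as a component of the 2-oxoglutarate dehydrogenase complex.

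**Figure D3:**
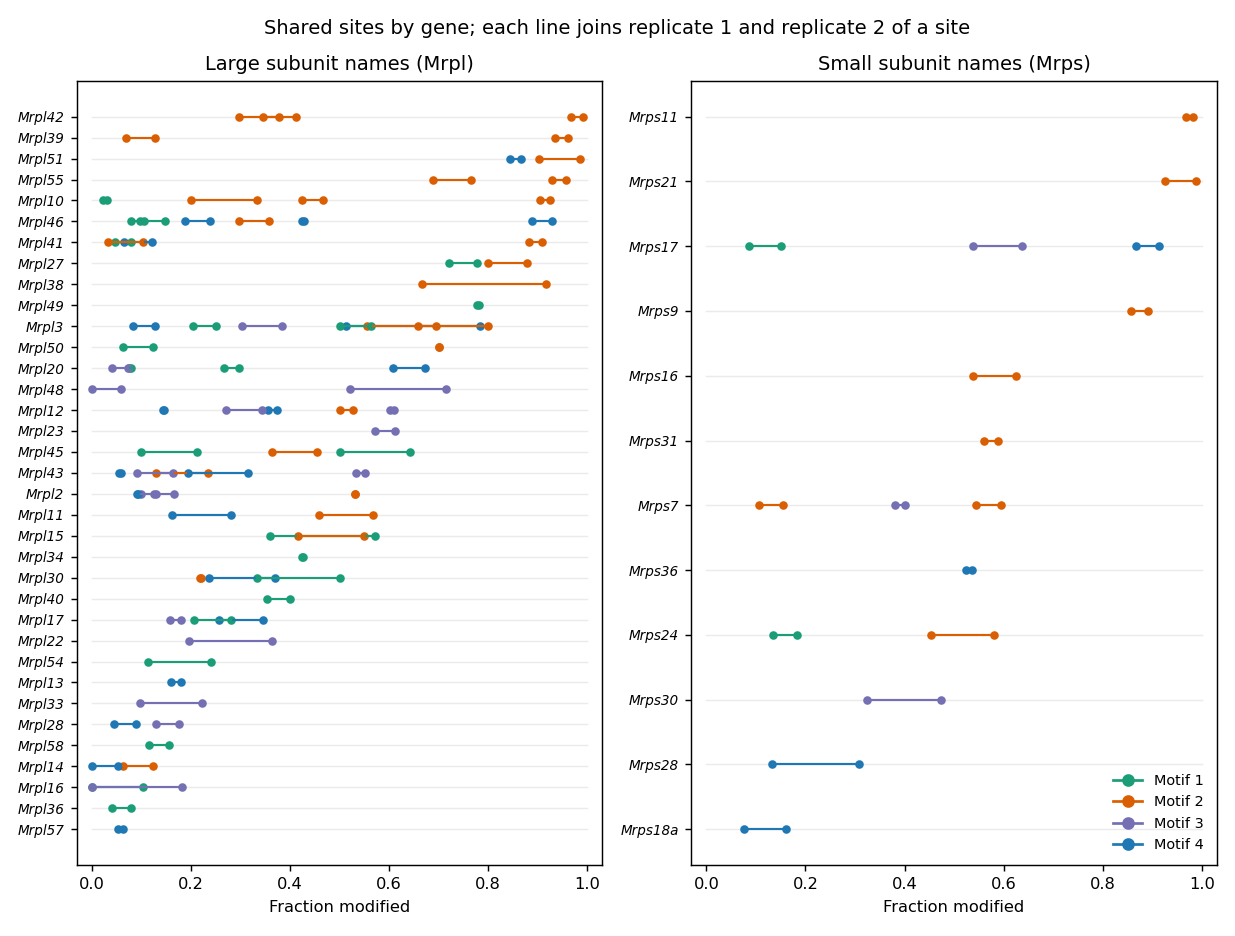
Fraction modified (horizontal axis) at each shared site, by gene (vertical axis), for large subunit names on the left and small subunit names on the right. Each line joins the replicates of 1 site and is coloured by motif (motif 1 AGACT, 2 GGACA, 3 GGACC, 4 GGACT). Genes with several sites, such as Mrpl46 and Mrpl10, span most of the range, and the lines are short beside it.

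By role, the stalk proteins come first. Mrpl10, Mrpl11 and Mrpl12 form the flexible stalk that recruits translation factors and its base, and together held 11 shared sites, 4 above and 6 below the motif median in both libraries (45.1% and 43.9% of all shared sites). Mrpl12 (chromosome 11, 120375439 to 120379891, as deposited) was the most deeply read of them, with up to 122 and 212 reads. Its GGACA site at 471 had fractions of 0.526 and 0.5 in replicates 1 and 2. The GGACT site at 702 had 0.373 and 0.355, and the one at 710 had 0.146 and 0.143. These neighbours, 8 nt apart with the same motif, thus differed by -0.220 ± 0.0103 (SD, n = 2).
Further along Mrpl12, GGACC at 826 had 0.602 and 0.610, and GGACC at 993 had 0.344 and 0.271. Coverage at 993 was 49 and 76 reads, 0.402 and 0.358 of the highest on that transcript, while at the other named transcripts with 3 or more sites the last site kept at least 0.917 of it. The reason for the lower coverage was not tested.

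Mrpl10 (chromosome 11, 96932386 to 96940039) spanned almost the full range on 1 transcript. GGACA at 973 had fractions of 0.905 and 0.925, and AGACT at 1126 had 0.0303 and 0.0222, the lowest mean of the family. Its GGACA sites at 317 and 489 had 0.423 and 0.467, and 0.2 and 0.333. The same motif was therefore near complete at 1 site of this transcript and below 0.5 at the others, over 31 to 48 reads. Mrpl11, which lies at the stalk base, had 0.458 and 0.567 at GGACA 317 and 0.28 and 0.162 at GGACT 743, over 62 to 139 reads.

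Other large subunit names with a bacterial counterpart held 37 shared sites in 16 genes, with 13 above and 20 below the motif median in both libraries, beside the same 45.1% and 43.9%. Mrpl3 (chromosome 9, 104930438 to 104957087), whose bacterial counterpart lies near the peptidyl transferase centre, had the most shared sites, 7, over 38 to 66 reads. From its start, AGACT at 560 had 0.25 and 0.205, and GGACT at 690 had 0.783 and 0.513. GGACC at 754 had 0.385 and 0.302, and GGACA at 982 had 0.556 and 0.694. The GGACT site at 690 showed the largest difference between libraries in the family, 0.270.
The remaining Mrpl3 sites were GGACT at 1248 with 0.0833 and 0.128, GGACA at 1344 with 0.8 and 0.659, and AGACT at 1417 with 0.5 and 0.564. Averaged over its 7 sites, Mrpl3 had 0.459 ± 0.0295 (SD, n = 2). The GGACT site at 1248 was the lowest of the 7 in both libraries, although the other GGACT site was among the higher ones.

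Mrpl2 (chromosome 17, 46957155 to 46961065), also a core protein of the subunit, was the gene with 4 sites that all lay below the motif median in both libraries. GGACC at 248 had 0.129 and 0.125, GGACC at 649 had 0.1 and 0.167, GGACA at 745 had 0.531 and 0.532, and GGACT at 1006 had 0.093 and 0.0909.
Mrpl20 (chromosome 4, 155887335 to 155894432) was read at 88 to 154 reads. AGACT at 310 had 0.0794 and 0.0756, GGACC at 332 had 0.0411 and 0.0738, AGACT at 604 had 0.296 and 0.267, and GGACT at 633 had 0.672 and 0.608. Its fractions were low in the first part of the listed stretch and higher in the last, in both libraries.
Mrpl17 (chromosome 7, 105452413 to 105460306) had its 3 sites within a short stretch. GGACT at 575 had 0.346 and 0.257, GGACC at 586 had 0.159 and 0.179, and AGACT at 645 had 0.28 and 0.206. They spanned only 0.133 in mean fraction, the narrowest range among the 13 transcripts with 3 or more shared sites.

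Of the 33 sites with 50 reads or more in both libraries, 6 had a mean fraction under 0.1, 18 from 0.1 to 0.5, and 9 of 0.5 or more. Over all 1827 such sites these classes held 14%, 48.3% and 37.7%. The lower ones among the members included sites of Mrpl14, Mrpl28 and Mrpl36. Mrpl14 had 0.0638 and 0.123 at GGACA 391, and 0.0536 and 0 at GGACT 476, over 71 to 101 reads. Mrpl28 had 0.129 and 0.176 at GGACC 561 and 0.0889 and 0.0441 at GGACT 923. Mrpl36 had 0.0408 and 0.0794 at AGACT 348. These sites are grouped here for their low fractions.
At Mrpl13, GGACT 976 had 0.179 and 0.159 over 129 and 193 reads. Mrpl33 had 0.0968 and 0.222 at GGACC 61, and Mrpl22, whose bacterial counterpart lines the peptide exit tunnel, had 0.195 and 0.364 at GGACC 627. Mrpl16 was at 0 and 0.103 at AGACT 636 over 22 and 38 reads, among the 5 lowest large subunit sites. At its GGACC site at 696, Mrpl16 had 0 and 0.182, a wider difference between libraries than at Mrpl22.
Mrpl34 had 0.423 and 0.427 at AGACT 349, above the motif median in both libraries. Mrpl30 had 0.220 and 0.219 at GGACA 95 and 0.370 and 0.237 at GGACT 597. Of these 3 sites, that of GGACA lay below its motif median.

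Large subunit names without a bacterial counterpart held 37 shared sites in 16 genes, with 15 above and 19 below (45.1% and 43.9% over all genes). Mrpl46 (chromosome 7, 78424984 to 78433279) had 6 sites over 26 to 44 reads. GGACT at 889 had 0.188 and 0.238, and GGACT at 899 had 0.889 and 0.929. These sites, 10 nt apart with the same 5 bases, differed by 0.696 ± 0.00771 (SD, n = 2), each over 29 and 44 reads. Over all genes, 16.5% of 103 neighbouring pairs of 1 motif within 30 nt differed by over 0.5, as did 2 of the 3 member pairs. Pairs were chosen for display after values had been seen.
The other Mrpl46 sites were GGACA at 615 with 0.357 and 0.296, AGACT at 781 with 0.08 and 0.0968, GGACT at 976 with 0.429 and 0.423, and AGACT at 991 with 0.105 and 0.147. The 6 sites stood in the same order of level in both libraries.

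Mrpl42 (chromosome 10, 95316667 to 95337802) gave the other wide pair. GGACA at 275 had 0.345 and 0.379, and GGACA at 303 had 0.966 and 0.991, over 113 to 143 reads. The difference was 0.617 ± 0.00651 (SD, n = 2). GGACA at 490 had 0.296 and 0.412. The site at 303 had the highest mean of the family. On a second listed transcript of the gene, where both positions are shifted by 3 nt, the fractions were 0.444 and 0.429 at the first and 1 and 1 at the second, over 20 and 14 reads, so the contrast was seen on both transcripts.

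Mrpl41 (chromosome 2, 24864129 to 24865110) also held unequal GGACA sites: 0.882 and 0.909 at 299, against 0.0333 and 0.103 at 551. GGACT at 420 had 0.122 and 0.0656, and AGACT at 537 had 0.0476 and 0.0781. Its single high site was the first of the 4.
Mrpl43 (chromosome 19, 44993268 to 44994881) had its highest site last. GGACT at 65 had 0.0588 and 0.0541, GGACA at 414 had 0.235 and 0.129, and GGACT at 461 had 0.316 and 0.194. GGACC at 547 had 0.0909 and 0.163, and GGACC at 764 had 0.533 and 0.552. That last site was above the motif median in both libraries.
Mrpl45 (chromosome 11, 97206542 to 97220746), which helps to hold the ribosome at the inner membrane, had 0.1 and 0.212 at AGACT 820, 0.364 and 0.455 at GGACA 1208, and 0.5 and 0.643 at AGACT 1274. All 3 sites were higher in replicate 2.

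**Figure D4:**
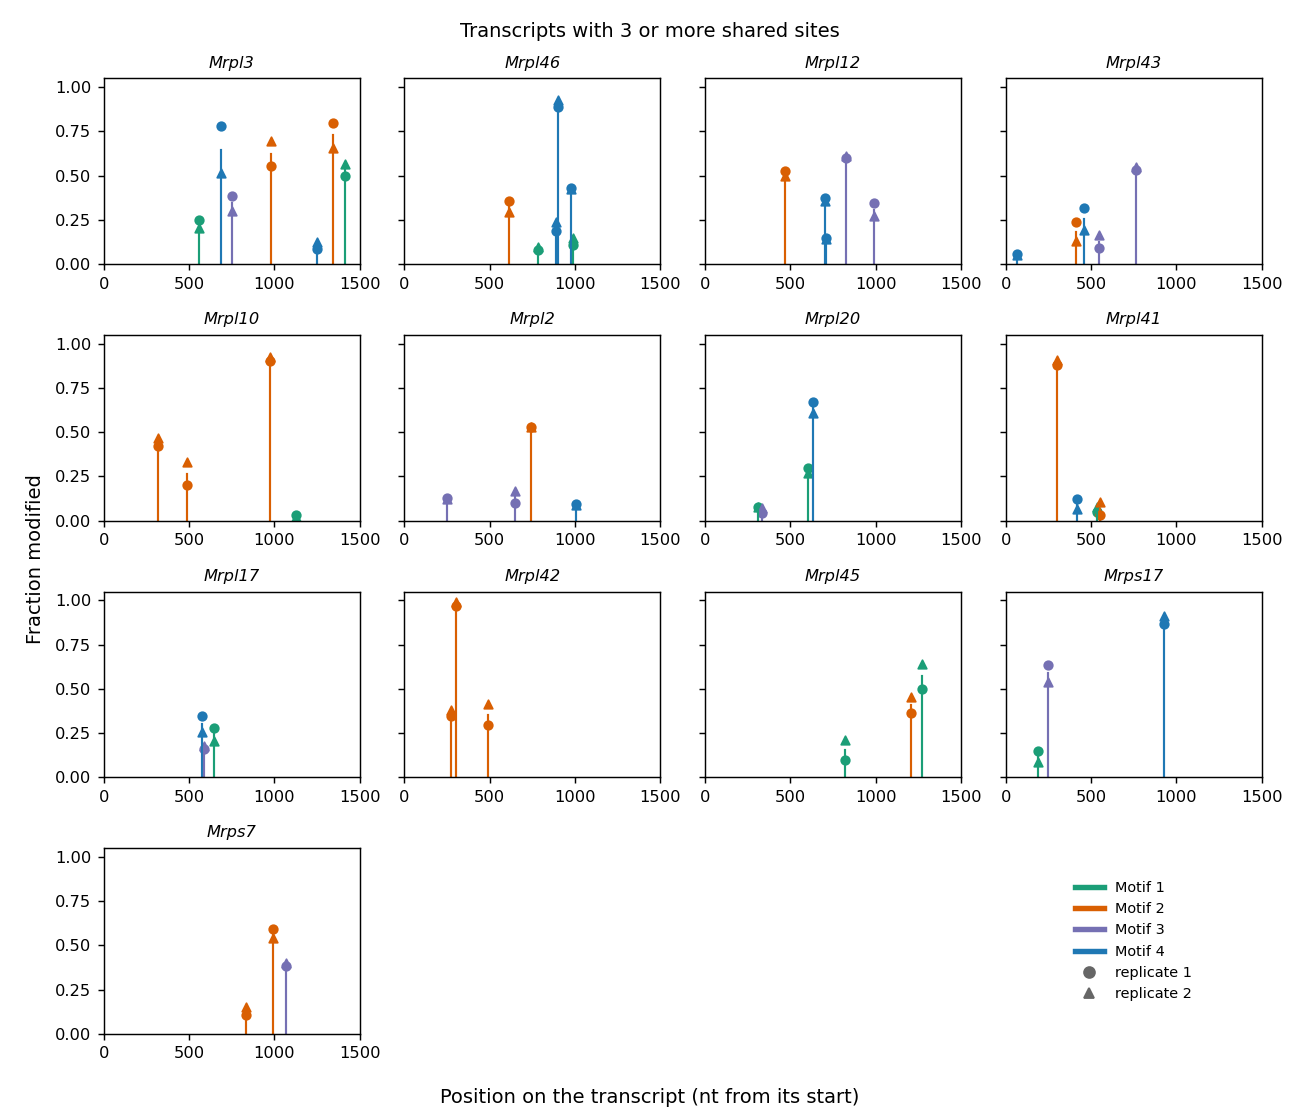
Fraction modified (vertical axis) by position in nt (horizontal axis) on the 13 transcripts with 3 or more shared sites, coloured by motif (motif 1 AGACT, 2 GGACA, 3 GGACC, 4 GGACT). Circles are replicate 1, triangles replicate 2, and stems end at the mean. Neighbouring sites of 1 colour stand at different heights in Mrpl46 and Mrpl42 in both libraries.

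Among the remaining genes of this group, Mrpl51 was high at both shared sites, with 0.902 and 0.984 at GGACA 179 and 0.865 and 0.844 at GGACT 615. Its sites in replicate 1 only were lower, 0.104 at GGACC 508 and 0.538 at AGACT 227. Mrpl39 had 0.935 and 0.96 at GGACA 1458 but 0.069 and 0.128 at GGACA 847. Mrpl55 had 0.929 and 0.957 at GGACA 639. Mrpl54 had 0.114 and 0.241 at AGACT 302, and Mrpl48 had 0 and 0.0588 at GGACC 130 but 0.714 and 0.522 at GGACC 220. Of the 4 high sites in Mrpl51, Mrpl39 and Mrpl55, 3 were GGACA and 1 was GGACT.

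Small subunit names held 17 shared sites: 14 in 9 genes with a bacterial counterpart and 3 in 3 genes without. Mrps17 (chromosome 5, 129792561 to 129799620) had 0.15 and 0.087 at AGACT 192, 0.636 and 0.538 at GGACC 250, and 0.867 and 0.913 at GGACT 926, over 22 to 28 reads. Mrps7 (chromosome 11, 115494751 to 115498862) had 0.105 and 0.154 at GGACA 832, 0.594 and 0.544 at GGACA 990, and 0.381 and 0.4 at GGACC 1068. Its pair of GGACA sites kept the same order in both libraries.
The highest small subunit sites were GGACA 436 of Mrps11 at 0.969 and 0.983, and GGACA 138 of Mrps21 at 0.989 and 0.925. GGACT 926 of Mrps17, given above, came next, and then GGACA 968 of Mrps9 at 0.857 and 0.892. Of the shared member sites, that of Mrps21 was the 1 with fewer reads in replicate 2, 96 against 113.
At the low end, Mrps18a had 0.161 and 0.075 at GGACT 635, Mrps24 had 0.135 and 0.183 at AGACT 447, and Mrps28 had 0.133 and 0.308 at GGACT 688. Mrps24 also had 0.581 and 0.453 at GGACA 379. Of the shared small subunit sites, 0 of 17 were at 0.1 or less in both libraries (10.1% over all genes; the Wilson 95% upper bound of 18.4% lies above it). GGACT at 583 of Mrps26, which was no shared site, was at 0 in replicate 2, with 21 reads, and at 0.0667 in replicate 1, with 15.

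Of the 63 member genes with a site in replicate 2, 16 (25.4%) had none in replicate 1, against 50.4% over all genes. These 16 held 50 sites, 33 of them in 9 small subunit genes. Small subunit names held 54 of the 169 member sites of replicate 2 (32%), so 33 of those 54 lay in genes without a site in replicate 1. Conversely, 4 of 51 genes (Mrpl47, Mrpl52, Mrps14 and Mrps18c) had a site in replicate 1 only (4.05% over all genes). Of the genes with sites in replicate 2 only, Mrps34 had the most, 6, over 24 to 26 reads. It was at 0 at AGACT 156 and at GGACC 375, and at 0.889 at GGACA 522. Its GGACT sites at 632, 651 and 712 had 0.15, 0.308 and 0.588. In replicate 1 the last 4 of these were listed over 9 reads, below the minimum, at 0.714, 0, 0.25 and 0.5, and the first 2 were not listed. Mrps2 had 5 sites over 39 to 42 reads, with 0.419 at AGACT 495, 0.826 at GGACA 697, 0.864 at GGACA 876, 1 at GGACC 1265 and 0.357 at GGACC 1943. In replicate 1 the first 4 had 0.714, 0.833, 0.727 and 1 over 11 or 12 reads, and the last was not listed. The GGACT sites of Mrps34 thus kept their order in both libraries. The place after these was shared by 7 genes with 4 sites each, Mrpl37, Mrpl44, Mrps12, Mrps26, Mrps27, Mrps35 and Mrps5. Those of Mrps12 were 1 GGACC and 1 AGACT site, each counted on 2 transcripts at a shift of 160 nt. In Mrps35, GGACT at 217 had 0.958 over 26 reads and 1 over 13 reads in replicate 1.
Every site found in 1 library only was short of reads or not listed in the other. Of the sites of replicate 2, 44 of 169 had under 20 reads in replicate 1 (42.6% over all genes), and 23 had no listed position there (25.2%). Of the sites of replicate 1, 26 of 130 had no listed position in replicate 2 (19%). A further 2 had under 20 reads there (0.17% over all genes), both on 1 transcript of Mrpl42. Of the 26, 22 lay on transcripts with 20 reads or more elsewhere in replicate 2. Of the 23 sites of replicate 2, 10 lay on such transcripts in replicate 1. These 2 shares were not computed over all genes. What keeps a covered position off the list is not given in the sources used here.

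Over all shared sites the family had a lower coverage ratio between libraries than other genes, a comparison that was not planned beforehand. The ratio of reads, replicate 2 over replicate 1, had a median of 1.64 at the 102 shared sites and 2 at the 5119 sites of other genes. It was below 1.5 at 36 of 102 member sites (13.1% over all genes). Cytosolic ribosomal and oxidative phosphorylation genes had medians of 1.55 and 1.60. In other genes the ratio went with the last listed position of the transcript, from 1.57 where it lay within 500 nt to 2.10 where it lay from 1500 to 2500 nt. The family's medians in the same 5 classes were 1.42, 1.67, 1.52, 1.68 and 1.91, the last over 6 sites, against 1.57, 1.68, 1.81, 1.91 and 2.10. From 500 to 800 nt the medians were thus nearly equal, 1.67 over 26 sites against 1.68 over 520. RNA length and integrity were not measured, and their part was not tested.

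**Figure D5:**
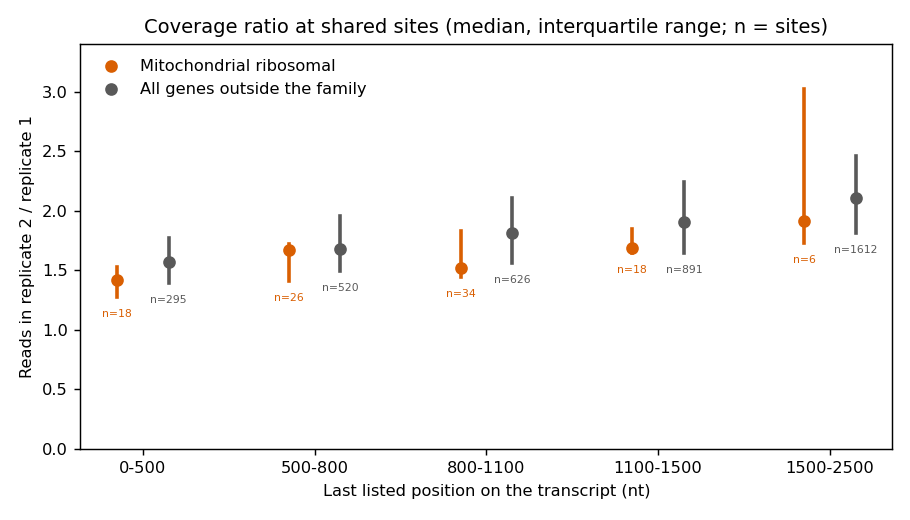
Median ratio of reads in replicate 2 over replicate 1 (vertical axis) at shared sites, by the last listed position of the transcript in nt (horizontal axis), for the family and all genes outside it. Bars are interquartile ranges and n counts sites. Other genes rise from class to class, the family does not (1.67 from 500 to 800 nt, 1.52 in the next class), and its last class holds only 6 sites.

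Genes that act with these ribosomes were taken from a list of 38 (assembly factors, translation factors and ribosomal proteins named otherwise), of which 35 were listed and 7 had 12 shared sites. Of these sites 5 (41.7%) lay above and 6 (50%) below the motif median in both libraries, against 45.1% and 43.9% over all genes. Chchd1, a small subunit protein, had 0.953 and 0.921 at GGACA 330, and Tufm, the mitochondrial elongation factor Tu, had 0.758 and 0.679 at GGACA 1425. The list held low sites too, as at GGACT 1454 of Tufm with 0.0357 and 0.111. Oxa1l, an inner membrane insertase, had 0.0556 and 0.0943 at GGACT 1392 and 0.0769 and 0.17 at AGACT 1439. At GGACA 1323 of Mterf3 the libraries stood apart, at 0.455 and 0.84. Measured against the motif median, the sites of the list had a median of -0.0735, those of the family -0.0622 and all shared sites 0.00395.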

How the data were processed

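Direct RNA libraries were sequenced from 2 samples of 1 group, and the deposited plus tables were analysed, 1 for each library. Per the file headers, the authors gave for each position a fraction modified (0 to 1) and a coverage, a whole-number count of reads of 5 or more. The base caller, aligner, modification caller and thresholds are not given in the sources used here. The build mm10 is named in the submitters' processing notes. The deposited gene coordinates did not match GRCm38.p6 and were left as deposited. The denominator of the fraction is not given: 9.23% and 7.10% of member fractions were whole multiples of 1 over the coverage (tolerance 0.0001), so no interval was set on a fraction.

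Sites had 20 reads or more and were matched on transcript and position. Differences of medians within motifs were taken per replicate and given as mean ± SD, with an exact paired permutation. Named in full are sites with 50 reads or more in both libraries, the 5 highest and 5 lowest shared sites by subunit, genes with 3 or more shared sites on 1 transcript, and the 3 replicate 2 only genes with the most sites; the third place was tied among 7 genes, which are named without all their sites. Role groups and the 2 comparison sets (names beginning with Rpl, Rps, Nduf, Cox, Atp5, Uqcr, Sdh or Cyc1, without assembly factors, kinases and pseudogenes) were assigned from general knowledge. Members, lists and comparisons were chosen with earlier results of these data known, and several were added after values were seen, as stated beside them. Scripts were tested on simulated data. Python 3.11.15, pandas 2.3.3, numpy 2.4.6, scipy 1.17.1 and matplotlib 3.10.9 were used.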

Additional observations from a re-analysis of the deposited data

Results flagged for a closer look

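The deposited minus tables, which the comparisons do not use, hold 11 listed positions in replicate 1 and 35 in replicate 2. One of them is in the family: Mrps25, GGACT at position 3602, was listed in replicate 2 with a fraction of 1 over 8 reads. It was singled out because it lies outside the tables compared, and its 8 reads are below the minimum of 20.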

How the results depend on the processing

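The labels give 1 group, so no replicate block between groups could be fitted, and the exact permutation paired gene sets within each library. Of 141 values recomputed from both libraries for 33 results, 86 stayed within a set limit, and 5 of these changed sign. The limit was the spread between libraries, or, for counts, 1.5 times. Pearson's r and the coverage ratio had limits of their own, and the replicate difference used its SD across sites. Inside or outside the limits, GGACT against other genes kept its sign under 4 of 8 alternatives. Large minus small at AGACT kept it under 1 of 5, and GGACA against other genes under 8 of 8. The 40 values that leave out 1 library are not counted, since with n = 2 they lie within the spread by construction. The cause of the values outside the limits was not tested beyond the fewer or more sites each setting admits. With 2 libraries the exact permutation cannot give a p under 0.5, the fraction's denominator is unknown, and shallow sites limit the small subunit most. Leaving out 1 library gave GGACA differences from other genes of -0.147 to -0.0667.

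With no read minimum there were 238 sites in replicate 1 and 178 shared, r was 0.8998, 77 sites lay above the motif median in both libraries (43.3% against 40.1% over all genes, which turns the reported order round), and 17 differed by over 0.2. The AGACT difference from other genes turned to 0.0507, and large minus small subunit turned to 0.0105 at GGACA, with -0.129 at GGACC, -0.211 at GGACT and -0.0759 over the 4 motifs. Against cytosolic ribosomal genes AGACT gave -0.169. Against oxidative phosphorylation genes AGACT gave -0.166 and GGACA -0.220. AGACT made up 22.7% of sites.

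With a minimum of 50 there were 44 and 91 sites and 33 shared, 11 above the motif median (33.3% against 47.2%) and 0 differing by over 0.2. Differences from other genes were -0.011 at AGACT, -0.189 at GGACA and -0.0592 at GGACT. Large minus small subunit gave 0.0439 at AGACT and -0.0883 at GGACC, and no value at GGACT. Against cytosolic ribosomal genes AGACT gave -0.223 and GGACT -0.069. Against oxidative phosphorylation genes GGACA gave -0.327 and GGACT -0.0888. AGACT made up 21.2% of sites, GGACA 29.5% and GGACC 23.5%.

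With 1 transcript per gene, differences from other genes were -0.0563 at AGACT and -0.0215 at GGACT, and large minus small gave -0.142 at GGACT. Against cytosolic ribosomal genes AGACT gave -0.316 and GGACT -0.0712, and against oxidative phosphorylation genes GGACA gave -0.147. AGACT made up 21.8% of sites. With only shared sites, differences from other genes were -0.0884 at AGACT and -0.0337 at GGACT. Large minus small gave 0.0572 at AGACT, -0.0602 at GGACA, -0.264 at GGACC and -0.176 at GGACT. Against cytosolic ribosomal genes AGACT gave -0.335 and GGACT -0.0413, and against oxidative phosphorylation genes AGACT gave -0.338.

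With means, differences from other genes were -0.0247 at AGACT and 0.0263 at GGACT. Alternatives chosen after seeing the data were the first 800 nt (AGACT -0.0692), leaving out Mrpl23-ps1 and Mrps36 (GGACT -0.0234), every comparison with the other gene sets, and moving Mrps18a and Mrps30 to the large subunit without Mrps36 and Mrpl23-ps1. That move gave large minus small of 0.0313 at AGACT, -0.172 at GGACC and -0.228 at GGACT. The comparison of coverage ratios was not planned beforehand either.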
